A study of Mus musculus with 12 samples.

Results

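The extracellular and membrane inhibitors of bone morphogenetic protein (BMP) and activin signalling considered here are 8 genes: Nog, Chrd, Grem1, Fst, Fstl1, Sostdc1, Bambi and Twsg1. They were found as the non-control probes whose transcript accession maps to these symbols, and they are 8 of the 20659 genes that have a probe on the array. The set was selected on the measured Eng+/- to wt difference of Nog, which had been seen to be lower in most Eng+/- pairs, so the genotype values below are a description and carry no test. Expression was measured on 12 two-colour arrays, with the sample in Cy5 (red) and a pool of all conditions in Cy3 (green) on every array, and each value is the log2 ratio of sample to pool. The study concerns Endoglin (Eng), a co-receptor for TGF-beta and BMP ligands, in the hair cycle.

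The samples carry 1 of 2 genotypes, Eng+/- or wt, at 50 or 90 d. They have no named treatment, or the treatment clp or tpa, and each of these combinations is 1 array. What clp and tpa stand for, what the days count, the strain, the sex and the number of animals are not given in the sources used here. Both wt titles without a named treatment contain the word pool. Each treatment was hybridised on a slide of its own, so treatment and slide cannot be told apart, whereas each of the 3 slides carries 2 genotypes and 2 days. The labels describe the cells as E14 mouse embryonic stem cells. Of 18 hair shaft and inner root sheath genes with a probe, 16 were well above background on all 12 arrays, as were all 10 fibroblast genes, and 6 of 10 embryonic stem cell genes were. The arrays were therefore named by genotype, treatment and day alone, with no cell type.

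BMPs are secreted ligands that bind pairs of serine/threonine kinase receptors and act through Smad proteins. Noggin, chordin and gremlin 1 bind the ligands outside the cell and keep them from their receptors, and follistatin does the same mainly for activins. In skin, BMP signalling holds hair follicle stem cells at rest, and noggin is known for promoting follicle formation and the entry into hair growth.

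The 12 arrays had a median Cy5 signal of 166.5 to 573 and a median Cy3 signal of 99 to 140 scanner units. Between 65.7% and 77.7% of non-control spots were well above background in Cy5, and the number of arrays limits the precision. Eng itself was lower in Eng+/- in 5 of 6 matched pairs, with log2 differences of -0.28 to -1.61. In the pair labelled tpa 50 d Eng was higher by 0.63, so those arrays go against their labels for the targeted gene. The median log2 ratio of the hair shaft list was -5.61 on the Eng+/- array without named treatment at 90 d, -4.78 and -5.14 on both tpa 50 d arrays, and between -1.61 and 0.95 on the other 9. If the RNA came from a mixture of cells, which the labels do not say, fewer cells of a type and less RNA per cell could not be told apart.

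Of the 8 genes, 7 were measured with Cy5 and Cy3 well above background on all 12 arrays. Bambi, a membrane pseudoreceptor that blocks BMP and TGF-beta receptor signalling, was well above background on 0 of 12 arrays in either channel. Its Cy5 signal lay between 62 and 87 scanner units, so no difference was detectable and it was not tested. All counts below are therefore over the 7 measured genes.

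Nog encodes noggin, a secreted protein that binds BMPs. With no named treatment, the Nog log2 ratio was -2.67 in Eng+/- and -0.76 in wt at 90 d, and -1.59 and -0.30 at 50 d. The clp values were -2.62 in Eng+/- and -1.01 in wt at 90 d, and -2.13 and -0.67 at 50 d. With tpa it was -3.36 and -1.42 at 90 d. The 5 Eng+/- arrays of these pairs lay below all 5 wt arrays. With tpa at 50 d the ratio was -3.07 in Eng+/- and -3.25 in wt, so that both arrays were among the 3 lowest of all 12.

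**Figure D1:**
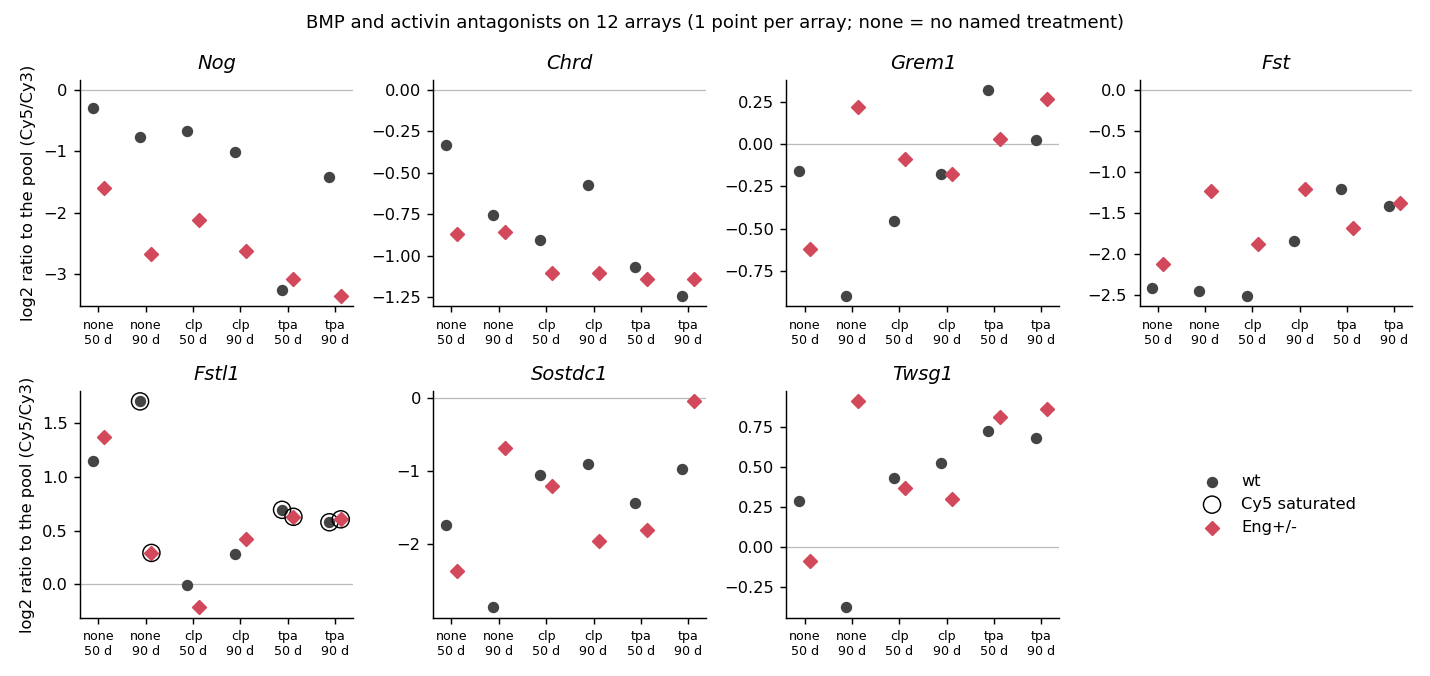
Log2 ratio of sample to pool for the 7 measured genes on each of the 12 arrays, with a scale of its own for each gene. Circles are wt, diamonds are Eng+/-, and a ring marks a saturated Cy5 signal; Nog was lower in Eng+/- than in wt in every condition except tpa at 50 d.

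The Eng+/- minus wt difference of Nog at 90 d was -1.91 without named treatment, -1.61 with clp and -1.94 with tpa, and at 50 d it was -1.29, -1.45 and 0.18 in the same order. Its mean was -1.34 ± 0.32 (SE over 6 pairs), a 2.53-fold lower level in Eng+/-, and -1.64 without the tpa 50 d pair. A lower value in at least 5 of 6 pairs was found for 17.2% of 25346 features, and a difference of at least 2-fold in at least 5 pairs for 24 features (0.0947%), Nog among them. Since Nog was picked for this difference, these shares only place it. The tpa 50 d pair, in which Nog did not differ in the same direction, was also the pair in which Eng was not lower in Eng+/-. The median difference of the hair shaft list at 90 d was -6.63 without named treatment, -1.61 with clp and -1.41 with tpa. At 50 d it was -1.24, 0.14 and 0.49 in the same order, so the list was lower in Eng+/- in 4 of the 5 pairs in which Nog was lower, and higher in the tpa 50 d pair. Its part in the Nog difference was not tested.

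The same direction appeared in the Cy5 channel without the reference. The Nog probe gave a median spot signal of 162 in Eng+/- and 228 in wt at 90 d, and of 105.5 and 193.5 at 50 d, with no named treatment. The clp arrays gave 169 against 2169.5 at 90 d and 273 against 3589 at 50 d. With tpa it gave 369.5 against 1384 at 90 d, and 144 against 138 at 50 d. The wt arrays thus spanned 138 to 3589 scanner units and the Eng+/- arrays 105.5 to 369.5. These spot signals are not scaled to the brightness of each array, whose median Cy5 signal ranged from 166.5 to 573. The lowest Nog signal, 105.5, was little above the 62 to 87 of the undetected Bambi, so the size of the Nog differences is uncertain at such levels. With Cy5 alone, quantile normalized between arrays, the mean Nog difference was -1.33 and Nog was lower in 5 of 6 pairs. These scaled differences were -1.35 and -0.62 without named treatment (90 d first), -2.44 and -1.93 with clp, and -1.71 and 0.05 with tpa.

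**Figure D2:**
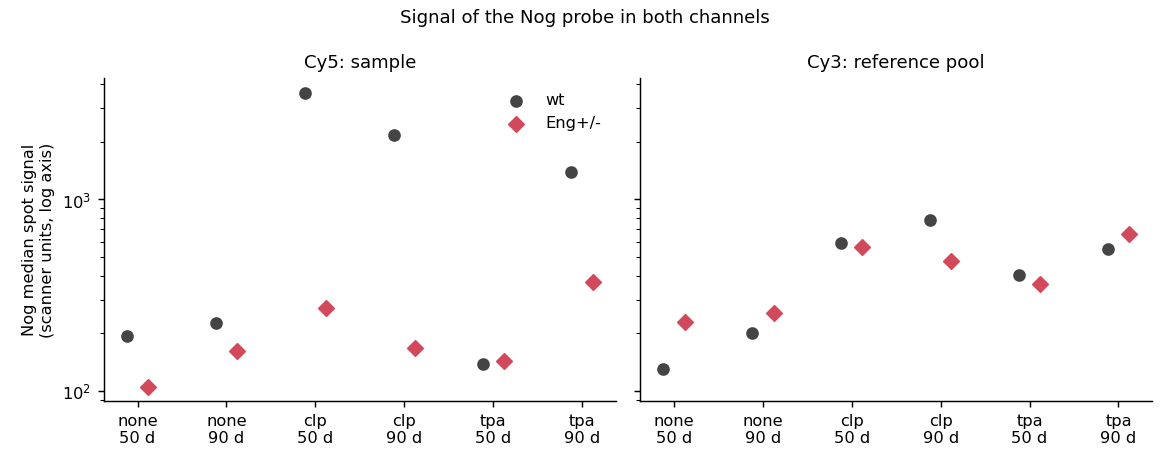
Median spot signal of the Nog probe in scanner units (log axis) in the sample channel (left) and in the reference pool (right), 1 point per array. The 3 highest Cy5 signals are wt arrays with clp or tpa, and the pool signal was lower on the 4 arrays without named treatment than on the other 8.

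The reference signal of Nog was not constant. In Cy3, which the labels give as a pool of all conditions, the Nog spot ranged from 131 to 780 scanner units, 5.95-fold, against 1.69- to 2.3-fold for the other measured probes of the set. It lay between 131 and 256 on the slide without named treatment, between 477 and 780 on the clp slide and between 363.5 and 661.5 on the tpa slide. Scaled to each array's median Cy3 signal, the pool's Nog value was 1.52 higher on the clp slide and 1.18 higher on the tpa slide than on the slide without named treatment (log2). For 99.3% of 26066 spots that difference was smaller for clp, and the median over these spots was -0.09. A higher pool signal lowers the log2 ratio, so every treatment difference of Nog rests in part on the reference. Both arrays of a genotype pair lie on the same slide, although within a pair the pool signal also varied, from 564 in Eng+/- against 591 in wt with clp at 50 d to 230 against 131 without named treatment at 50 d.

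Chrd encodes chordin, which binds BMPs in the extracellular space. Its log2 ratio ranged from -1.24 to -0.33, a narrow range of 0.91 that was smaller than Nog's 3.06 and close to the median range of 0.86 over all features. It was lower in Eng+/- in 5 of 6 pairs, with differences of -0.07 to -0.53 there and a mean of -0.22 ± 0.11 (SE). This direction depended on the processing, since Chrd was lower in 3 of 6 pairs under median centring (mean -0.052) and in 2 of 6 with Cy5 alone (mean 0.036). Fst encodes follistatin, an activin antagonist that also binds some BMPs. Its difference was in the other direction, 1.21 and 0.29 without named treatment (90 d first), 0.63 and 0.64 with clp, and 0.04 and -0.48 with tpa, with a mean of 0.39 ± 0.24 (SE). A higher value in at least 5 of 6 pairs, as for Fst, was found for 14.6% of features, and a lower one, as for Chrd, for 17.2%. The pair count of Fst also depended on the processing. Fst was lower in 3 of 6 pairs under median centring (mean 0.54) and in 1 of 6 with Cy5 alone (mean 0.49).

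**Figure D3:**
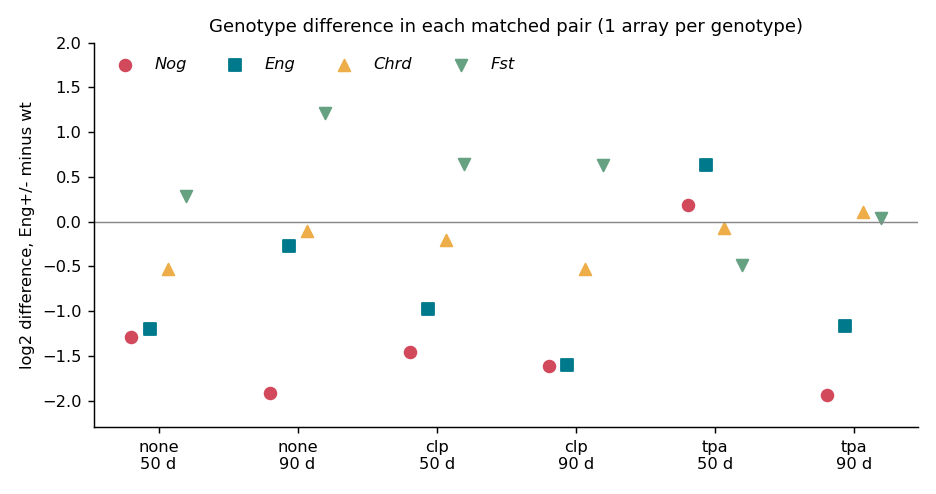
Log2 difference, Eng+/- minus wt, of Nog, Chrd, Fst and Eng in each of the 6 matched pairs of 1 array per genotype. Nog and Eng lie below 0 in every pair except tpa at 50 d, Chrd lies between -0.53 and 0.10, and Fst reaches 1.21 without named treatment at 90 d.

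The other 4 measured genes had no shared direction between genotypes. Grem1 encodes gremlin 1, a secreted BMP antagonist, and Sostdc1 encodes a secreted modulator of BMP and Wnt signalling that is also called ectodin or wise. Twsg1 encodes twisted gastrulation, which binds BMPs and chordin, and Fstl1 encodes a secreted follistatin-like glycoprotein. Grem1 was lower in Eng+/- in 2 of 6 pairs, Twsg1 in 3, and Sostdc1 in 4. Fstl1 was saturated in Cy5 on both arrays without named treatment at 90 d and on all 4 tpa arrays. Those pairs give no measured difference for Fstl1. In the other pairs its difference was 0.23 without named treatment at 50 d, and 0.14 and -0.21 with clp (90 d first). The largest differences of Sostdc1, Twsg1 and Grem1 fell in the pair without named treatment at 90 d. They were 2.18 for Sostdc1, 1.28 for Twsg1 and 1.12 for Grem1, and without that pair the mean of each gene was below 0. The Sostdc1 values are those of its brighter probe, and the other probe gave 0.90 in Eng+/- and 0.63 in wt in that pair. Fstl1 was saturated in Cy5 on both arrays of the pair, so its difference there was not measured. In that pair the hair shaft list had a median difference of -6.63, and 1399 features were at least 2-fold higher and 1108 at least 2-fold lower in Eng+/-. The part of hair cells in these values was not tested.

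For the comparisons of treatment and day, all features were fitted with limma, genotype and the 6 conditions being the terms, and adjusted p-values are Benjamini-Hochberg values over all 25346 features. With 1 array per group, the error comes from the spread that remains after both terms are fitted, and whether arrays stem from separate animals is not given. The treatment comparisons share arrays with one another. At an adjusted p below 0.05, 0 of the 7 genes were called in each of the 8 comparisons, and the number at an unadjusted p below 0.05 is given with each.

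On the ratio scale, the fitted treatment difference of Nog was largest between tpa and no named treatment, whereas Cy5 alone gave 0.15 for it and a lower value in 2 of 4 pairs. The ratio of tpa minus no named treatment was -0.68 in Eng+/- and -0.66 in wt at 90 d, and -1.48 and -2.96 at 50 d, so Nog was lower with tpa in 4 of 4 matched pairs. A lower value in all 4 pairs was found for 15.7% of features. The fitted difference was -1.44 ± 0.31 (SE), with a 95% interval of -2.14 to -0.74 and an adjusted p of 0.0724. The called share of all features was 0.13% (33), and 4 of 7 genes of the set had an unadjusted p below 0.05, against 26.0% of all features. Chrd was lower in 4 of 4 pairs (-0.45 ± 0.14, adjusted p = 0.106 by limma). Grem1 and Sostdc1 were higher in 4 of 4 pairs, with 0.53 ± 0.24 and 0.85 ± 0.46, and a higher value in all 4 pairs was found for 15.2% of features. Fst gave 0.64 ± 0.25 and Twsg1 0.59 ± 0.25, each higher in 3 of 4 pairs. The adjusted p of these 4 genes lay between 0.157 and 0.266. The median difference of the 7 genes was 0.53, and that of all features was -0.0011.

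The tpa comparison depended on single arrays. Without the Eng+/- array of no named treatment at 90 d, which is also 1 of the 3 arrays low in hair shaft genes, 6 of the 7 genes passed, and so did 19.8% of all features. Nog then fell by 1.61, whereas Grem1 rose by 0.81, Fst by 0.88, Sostdc1 by 1.45 and Twsg1 by 0.93 (adjusted p = 0.00761 to 0.0291 by limma). Fstl1 was the other gene past the threshold, with a fitted value of -0.86. Its Cy5 signal was saturated on all 4 tpa arrays and on the wt array of no named treatment at 90 d, and median centring gave 0.19, so neither its size nor its direction is established. Without the Eng+/- tpa 50 d array, Nog alone passed (-1.90, adjusted p = 0.0237). Without the wt tpa 50 d array the Nog difference was -0.99 and did not pass (adjusted p = 0.263). In the fit of all 12 arrays, the hair shaft list had a median difference of -1.16 between tpa and no named treatment. Of its genes 0 of 18 passed (0 of 18 at an unadjusted p below 0.05), and the part of the list in the values of the set was not tested.

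**Figure D4:**
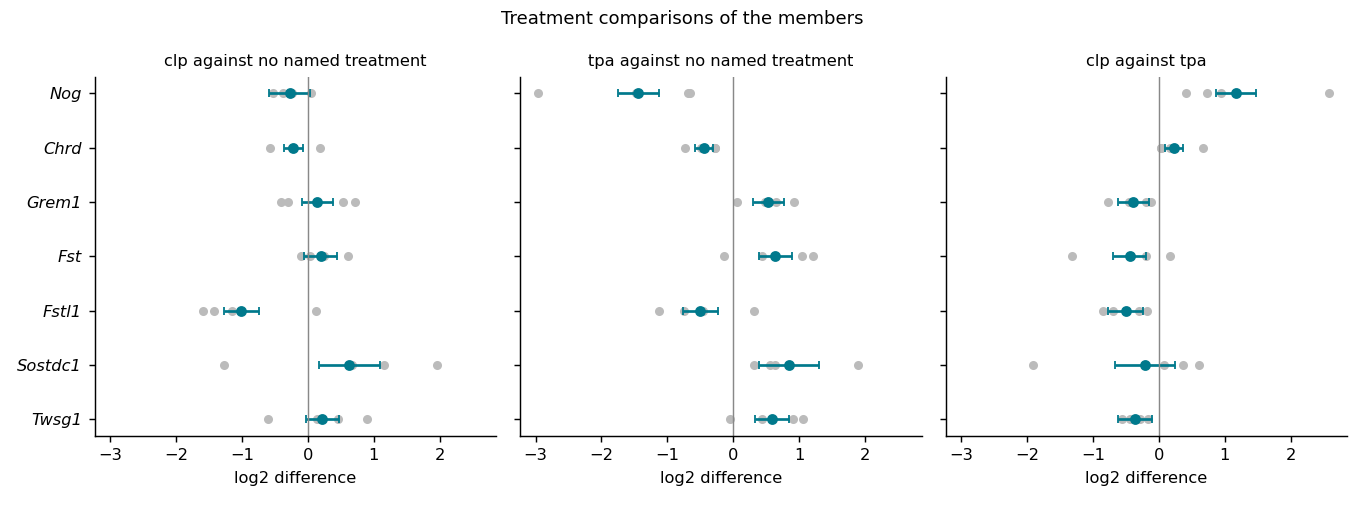
Log2 differences of the 7 measured genes in the treatment comparisons, with the fitted value and its SE (coloured) and the 4 matched pairs (grey points). On this ratio scale Nog lies lowest in tpa against no named treatment and highest in clp against tpa; no gene passed an adjusted p of 0.05.

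For clp against no named treatment, Fstl1 had the largest difference. With no named treatment its log2 ratio was 0.29 and 1.37 in Eng+/- (90 d first) and 1.70 and 1.15 in wt. With clp it was 0.42 and -0.22 in Eng+/- and 0.28 and -0.0020 in wt. It was lower with clp in 3 of 4 pairs, the exception being Eng+/- at 90 d, and the fit gave -1.01 ± 0.26 (adjusted p = 0.0509 by limma). The called share of all features was 7.71%, and 1 of 7 genes of the set had an unadjusted p below 0.05, against 27.0% of all features. Fstl1's Cy5 signal was saturated on 6 of 12 arrays, which were both arrays without named treatment at 90 d and all 4 tpa arrays, so its value has only a bound there. In the Cy5 channel tpa was at least 1.25-fold over clp (adjusted p of the ratio 0.27). The 4 tpa arrays cannot be ordered among themselves. Sostdc1 gave 0.63 ± 0.46 with clp, Nog -0.27 ± 0.31 and Chrd -0.22 ± 0.14. Grem1, Fst and Twsg1 gave 0.14 to 0.22 with an SE of 0.24 to 0.25.

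The sign of the Nog difference with clp depended on the processing. The ratio was lower with clp in 3 of 4 pairs, with a 95% interval of -0.97 to 0.43, whereas Cy5 alone gave a higher Nog level with clp (1.53, adjusted p = 0.0173). The authors' processed signals gave 0.29 and median centring 0.71. Without the Eng+/- array of no named treatment at 90 d, Fstl1 fell (-1.37) and Sostdc1 (1.24) and Twsg1 (0.56) rose with clp, beside 17.9% of all features. In the fit of all 12 arrays, the hair shaft list had a median difference of 2.02 between clp and no named treatment. It was higher in 18 of 18 genes, and 2 passed. Of the fibroblast list, 4 of 9 fell with a median of -0.75, and of the macrophage list 4 of 7 fell with a median of -0.78. The part of these cells in the values of the set was not tested.

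Between clp and tpa, Nog was higher with clp in 4 of 4 pairs, by 0.41 to 2.58. The fitted difference was 1.17 ± 0.31 (95% interval 0.47 to 1.87, adjusted p = 0.0512 by limma), beside 8.2% of features called and 16.9% higher in all 4 pairs. Here 1 of 7 genes had an unadjusted p below 0.05, against 24.8% of all features. This is the treatment comparison of Nog in which the pool signals of both sides overlapped, and Cy5 alone gave 1.38 (adjusted p = 0.0438). Leaving out either 90 d array of no named treatment gave the same fit of this comparison (1.17), which uses neither array, so these are not separate checks. The difference was 1.63 without the Eng+/- tpa 50 d array and 0.71 without the wt tpa 50 d array. These were the highest and lowest of the 12 fits that each left out 1 array. Under median centring the difference passed (1.47). Chrd was higher with clp in 4 of 4 pairs (0.23 ± 0.14). Grem1, Fstl1 and Twsg1 were lower in 4 of 4 (-0.39, -0.51 and -0.36), a pattern shared with 13.3% of features, and none of these passed. The hair shaft list was higher with clp by a median of 3.12 (4 of 18 passed), and the macrophage list had a median of -1.83 (5 of 7 passed, all lower).

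The levels of Nog averaged over genotypes were, in rising order, -3.16 with tpa at 50 d, -2.39 with tpa at 90 d, -1.81 with clp at 90 d, -1.72 without named treatment at 90 d, -1.40 with clp at 50 d and -0.95 without named treatment at 50 d (SE 0.31 each). No step between neighbours, 0.10 to 0.78, exceeded 2 times the SE of a difference, 0.44. The order across treatments rests on ratios to a pool signal that differed between slides. With Cy5 alone the mean log2 levels were 7.56 with tpa at 50 d, 8.12 and 8.29 without named treatment at 90 and 50 d, 9.15 with tpa and 9.35 with clp at 90 d, and 10.1 with clp at 50 d, so that tpa at 50 d was lowest on both scales and the rest of the order was not shared. Twsg1, Grem1 and Fst were lowest without named treatment at 50 d, at 0.10, -0.39 and -2.27, and highest with tpa, at 0.77, 0.18 and -1.39. In Twsg1, Grem1 and Fst too, no neighbouring levels differed by more than 2 times the SE of a difference.

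Between 90 and 50 d, 0 of 25346 features (0%) passed in each day comparison, within each treatment and over all treatments, and 0 of 7 genes had an unadjusted p below 0.05 in any of them. At that unadjusted level, 306 features stood out over all treatments, 1398 without named treatment, 3198 with clp and 1467 with tpa. The 90 minus 50 d difference of Nog was -0.77 ± 0.44 without named treatment, -0.42 ± 0.44 with clp and 0.78 ± 0.44 with tpa. A test that the day difference is the same in all treatments gave an adjusted p of 0.412 for Nog by limma, with 0 of 7 genes and 0 of 25346 features (0%) passing, and 3468 features at an unadjusted p below 0.05. Sostdc1 with tpa had the largest fitted day difference of the set, 1.10 ± 0.65, and Fst with clp gave 0.67 ± 0.36.

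Sostdc1 has 2 probes. The brighter one, which stands for the gene above, ranged from -2.86 to -0.05 on the log2 ratio scale, and the other from 0.09 to 1.23, with a correlation of 0.318 over 12 arrays. Their differences had opposite signs for clp (0.63 and -0.34) and tpa (0.85 and -0.17) against no named treatment. Without named treatment at 50 d, the brighter probe was lower in Eng+/- than in wt (-2.36 against -1.74). The other probe was higher there (1.23 against 0.87), so the direction of Sostdc1 is uncertain. Every other gene of the set rests on a single probe.

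Across the 12 arrays, Grem1 and Twsg1 had the most similar log2 ratios of any pair in the set (Pearson's r = 0.92), followed by Sostdc1 with Twsg1 (0.82) and Grem1 with Fst (0.79). Nog went with Chrd (0.70) and opposite to Fst (-0.82) and Grem1 (-0.70). These correlations describe 12 arrays that share 1 reference pool and 3 slides, and those of Fstl1 include 6 arrays with saturated Cy5. The promoters of Grem1 and Twsg1 are shown for this likeness, as the 250 bases before the annotated start (RefSeq, GRCm38.p6, 5′ to 3′ on the gene's strand), and 4 of the 8 genes had an entry in the RefSeq promoter table. Capitals mark matches, on both strands, of the Smad box CAGAC, the GC-rich BMP response core GGCGCC, the GC box GGGCGG and the TATA box TATAAA. Grem1 lies at chr2:113758649-113758898 on the minus strand and Twsg1 at chr17:65951188-65951437 on the minus strand.
Grem1: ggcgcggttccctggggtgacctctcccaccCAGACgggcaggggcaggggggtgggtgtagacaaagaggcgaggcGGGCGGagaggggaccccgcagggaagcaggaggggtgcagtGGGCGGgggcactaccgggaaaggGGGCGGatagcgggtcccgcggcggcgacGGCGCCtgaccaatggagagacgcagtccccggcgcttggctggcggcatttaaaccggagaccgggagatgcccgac
Twsg1: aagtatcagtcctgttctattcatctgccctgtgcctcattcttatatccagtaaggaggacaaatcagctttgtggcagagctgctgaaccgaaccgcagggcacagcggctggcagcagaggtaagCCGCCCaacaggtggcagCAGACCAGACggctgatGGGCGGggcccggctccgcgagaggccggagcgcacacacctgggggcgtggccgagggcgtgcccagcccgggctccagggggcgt

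The Grem1 window holds 1 Smad box, 1 GC-rich core and 3 GC boxes, and the Twsg1 window holds 2 adjoining Smad boxes and 2 GC boxes, of which 1 is on the opposite strand. Neither holds TATAAA. Of 32851 promoters with this window length, 42.2% hold CAGAC, 9.59% GGCGCC, 32.7% GGGCGG and 12.4% TATAAA. Both windows are GC-rich, with 72% and 64.4% of bases G or C against a median of 52.4%. A match of letters is a description and shows no binding.

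**Figure D5:**
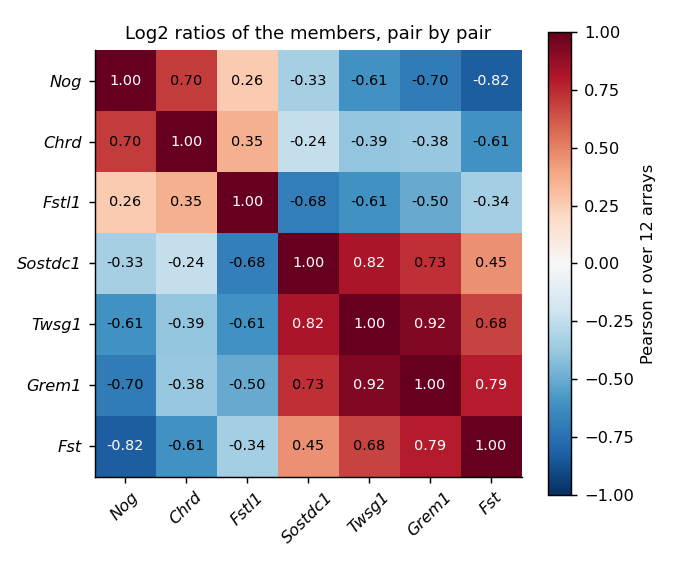
Pearson's r of the log2 ratios over 12 arrays for each pair of the 7 measured genes. Grem1, Twsg1, Sostdc1 and Fst form a block of positive values, and Nog and Chrd are negative against all 4.

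Outside the set, the features with ratios most like Nog over the 12 arrays were Sh3bp5l (r = 0.92), Cln8 (0.92), Cfap221 (0.91), Myh14 (0.91) and Agmat (0.90). For Chrd they were Tldc2, Syngr3 and Gtpbp3 (0.98 each), and for Grem1 Dusp18 (0.97), Nfatc1 (0.96) and Tent5a (0.96). For Fst they were Fam13a (0.93), Slc35f5 (0.92) and Bckdhb (0.92). Fstl1 was closest to Lat2 (0.96), Fn1, which encodes fibronectin (0.95), and Arhgap30 (0.95). Its Cy5 signal was saturated on 6 of the 12 arrays, so these values of r do not measure likeness to its level. For Sostdc1 they were Nek7, Prrc2b and Pja2 (0.96 to 0.98), and for Twsg1 Gstm5, Fundc2 and Rnf13 (each 0.97). These genes were the highest among all features with a symbol, and no shared function is implied.

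Other extracellular antagonists and modulators were compared between clp and no named treatment, where 4.25% of all features were called higher and 3.46% lower. Nbl1, a secreted BMP antagonist, fell by 1.11 ± 0.27 (adjusted p = 0.0398 by limma), and Htra1, a secreted serine protease, fell by 1.09 ± 0.24. Cer1, the antagonist cerberus, gave 0.47 ± 0.12 but was well above background on 5 of 12 arrays. With clp against tpa, Bmp1 (1.06), a metalloprotease that cleaves chordin, rose in 4 of 4 matched pairs. Cer1 was called with 0.51 but was higher in only 2 of 4 pairs (-0.14 to 1.24). Of all features, 3.62% were called higher and 4.58% lower between clp and tpa. Against no named treatment, tpa gave 0 of 14 calls, with 4 of 14 at an unadjusted p below 0.05.

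Of 13 measured BMP ligands, 3 were called higher with clp against no named treatment, namely Bmp8a (1.00), Bmp10 (1.43) and Gdf5 (1.32). Against tpa 4 were called higher, these 3 and Bmp2 (0.71). In that comparison Bmp10 was higher in only 2 of 4 matched pairs (-0.29 to 3.12), and Gdf5, Bmp8a and Bmp2 in 4 of 4. Bmp4, the classical noggin target, gave 0.18 ± 0.15 and 0.41 ± 0.15 and did not pass (adjusted p = 0.498 and 0.142 by limma). Of 7 activin subunits and ligands, Inhba alone passed, with 0.51 ± 0.13 against no named treatment and 0.53 ± 0.13 against tpa. Of 13 receptors, Eng (1.5) and Bmpr1a (0.77) rose and Acvr1c fell by 0.79 with clp, and none passed between clp and tpa, where 4 had an unadjusted p below 0.05.

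Downstream, 2 of 14 Smads and intracellular inhibitors rose with clp, the inhibitory Smad7 (1.34) and Skil (1.02), and Smad6 (0.97) rose with both of them against tpa. The response genes Msx1 (0.52) and Dlx3 (1.03) rose against tpa, 2 of 8 measured, and 0 of 8 passed against no named treatment, where 2 had an unadjusted p below 0.05. Against tpa, Smad7, Smad6, Msx1 and Dlx3 were each higher in 3 of 4 matched pairs, and Skil in 4 of 4. In the same comparison 5 of 12 hair matrix and dermal papilla genes were called higher, against 3.62% of all features. The part of hair cells in these values was not tested. Id1, a direct BMP target, gave 0.39 ± 0.30 against no named treatment and 1.13 ± 0.30 against tpa (adjusted p = 0.0524 by limma). For tpa against no named treatment, 0 genes of any of these lists passed, beside 0.0276% of all features called higher and 0.103% called lower. The lists were compiled with earlier results of these data known, and each of the calls named here was lost in at least 1 alternative. Treatment and slide cannot be told apart in any of them.

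Between genotypes, as a description, Bmp2 and Bmp4 were each lower in Eng+/- in 5 of 6 pairs, by a mean of -0.32 and -0.25, and Bmp6 was lower in 1 of 6. Id1 was lower in 5 of 6 pairs, with -1.80 without named treatment at 90 d and values between -0.53 and 0.42 in the other pairs. Of all features, 17.2% were lower and 14.6% were higher in at least 5 of 6 pairs, so such counts are common. The mean of Nog, -1.34, is no yardstick for these genes, since Nog was picked for its genotype difference.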

How the data were processed

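The deposited scanner files hold median foreground and background intensity of both channels, together with processed signals that the authors corrected for background and dye, per the file headers. The deposited table of values holds log10 ratios, identical to those in the scanner files (largest difference 0). Feature Extraction is version 10.0 per the submitters' processing notes and 10.7.3.1 per the file headers, and the design text's dye swaps are not seen in the labels, which put the sample in Cy5 on all 12 arrays.

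Median intensities were read with the data.table package (version 1.17.8) in R 4.3.3 and background-corrected by normexp (offset 50) and loess-normalized per array with limma 3.58.1, control spots having weight 0. Mean signals were intended, but median signals are what the files hold. The 43020 non-control spots (of 44397) represent 39429 probes, and 975 probes with an outlier flag were dropped. Probes with Cy5 well above background on at least 2 of 12 arrays were kept (30523, of which 22366 were named by accession through RefSeq), and the brightest probe stood for a gene, giving 25346 features, 17189 with a symbol. The model had genotype and the 6 conditions as terms (5 residual degrees of freedom, eBayes with a trend over intensity), Benjamini-Hochberg adjustment and a threshold of 0.05. The script was tested on simulated data.

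The genes and lists were chosen with earlier results of these data known. Every gene of the set is named; of the other lists, those reported are among up to 4 called genes per list and comparison with the smallest p, a fixed set that may be named in any comparison (among them Bmp2, Bmp4, Bmp6, Id1 and Bmpr1a), and the 5 genes most correlated with Nog and the 3 with each other measured gene. Alternatives changed the background correction, the normalization, the use of the reference, the filter, the probe rule, the arrays included and the model. Some items of the other lists are not reported here.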

Additional observations from a re-analysis of the deposited data

How the results depend on the processing

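The number of the 7 genes past the threshold, 0 in each comparison, changed. For clp against no named treatment it was 1 with the authors' processed signals (16.4% of all features called). It was 1 with both channels required above background (8.24%) and 2 with Cy5 alone (24.6%). When single arrays were left out it was 0 to 3. The count was 3 without Eng+/- (17.9%) and 1 without wt (6.3%), both no named treatment at 90 d. For clp against tpa it was 2 with Cy5 alone, 1 with median centring and 0 to 2 without single arrays (2 without either array of no named treatment at 90 d, 1 without Eng+/- tpa 50 d). For tpa against no named treatment it was 1 with median centring (4.15%) and 0 to 6 without single arrays. The count was 6 without Eng+/- of no named treatment at 90 d (19.8%) and 1 without Eng+/- tpa 50 d (0.0395%). In the day comparisons it was 0 in every alternative.

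Some directions turned. Nog with clp against no named treatment was 0.29 with processed signals, 0.71 with median centring and 1.53 with Cy5 alone, and with tpa 0.15 with Cy5 alone. Chrd with clp was 0.13 with median centring and 0.24 with Cy5 alone, and with tpa 0.014 with median centring. Fstl1 with tpa was 0.19 with median centring, and Bmp1 between clp and tpa was -0.016 with Cy5 alone. Without single arrays, differences with clp against no named treatment ranged from -0.15 to 0.43 for Grem1 (-0.049 without Eng+/- of no named treatment at 50 d), -0.050 to 0.44 for Fst and -0.12 to 0.56 for Twsg1, Sostdc1 between clp and tpa from -0.58 to 0.15 (0.017 without Eng+/- tpa 90 d), and the day difference of Nog with tpa from -0.14 to 1.69. The mean genotype difference of Chrd was 0.036 with Cy5 alone and that of Fstl1 0.047 with median centring and 0.070 with Cy5 alone. Without single arrays they ranged from -0.25 to 0.39 for Sostdc1, -0.080 to 0.25 for Twsg1, -0.029 to 0.29 for Grem1 and -0.30 to 0.024 for Fstl1 (turned without the pair of no named treatment at 90 d, Sostdc1 also without that of tpa at 90 d). The Fstl1 means include pairs with saturated Cy5, so they give neither a size nor a direction. The causes of the turns were not tested. The mean genotype difference of Nog ranged from -1.22 to -1.64 without single arrays, and was -1.86 with processed signals and -1.60 with median centring.

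Median centring moved the median of all features by 0.24 (clp) and 0.33 (tpa) against no named treatment, and the share of calls that were higher from 55.1% to 88.8% and from 21.2% to 84.0%. Over all features, the 1953 calls for clp against no named treatment became 4148 with processed signals, 6235 with Cy5 alone, 745 with no condition block, 869 without both tpa 50 d arrays, 8 without both wt arrays whose reference stood apart, and 1 to 4536 without single arrays. The 33 calls for tpa became 0, 1052, 434, 19 and 9 with processed signals, median centring, Cy5 alone, the mean of all probes and no condition block, 10 without both wt arrays, and 0 to 5028 without single arrays. The 2079 calls between clp and tpa became 510 with no condition block, 330 without both wt arrays and 211 to 3006 without single arrays. Day comparisons went from 0 to at most 317 (day by treatment, median centring). Without both tpa 50 d arrays the comparisons that use them have no value, nor have days within a treatment or day by treatment with no condition block. The labels carry no replicate numbers. With the matched arrays of a genotype and day as a block, chosen after seeing the data, 0 of the 7 genes passed in each treatment comparison, and 30 (clp), 2 (tpa) and 359 (clp against tpa) of all features. Dim or saturated signals limit Bambi and Fstl1.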
